A study of Homo sapiens with 19 samples.

Results

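The data described here are the promoter barcode read-out of the pAPOBEC3F reporter library in K-562, a human leukaemia cell line in wide use. QUASARR-seq tests many DNA elements at once in a dual reporter, with each plasmid holding an element, a minimal promoter and both a paBC and an eaBC, the barcodes that are counted. The paBC was taken as the promoter read-out and the eaBC as the enhancer read-out. All 2703 elements with DNA reads in the pAPOBEC3F paBC table were used, of 3422 different element names over the 8 deposited tables. The comparison was between 2 RNA libraries and 2 DNA libraries of the same cells. All 4 came from a single plasmid pool that also held the minimal promoters pGAPDH and pMYC, in the vector pDEST-QUASARR-luc-gfp, and the labels name no other agent. Each electroporation used 20 µg of plasmid. A technical replicate pooled 5 electroporations, a biological replicate had 2 technical replicates, and cells were collected after 6 h. The cells of each technical replicate were divided between RNA and DNA at 4 to 1 by number. The plasmids are episomal and transient, so the read-out concerns elements outside their chromosomal place. Whether the replicates numbered 1 and 2 are of the biological or of the technical kind is not given in the labels, so p-values measure only the spread between these libraries.

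In a reporter of this kind, the barcode RNA made from an element is divided by the barcode DNA, which corrects for how many plasmids with that element entered the cells. A promoter holds the sites where RNA polymerase II begins transcription, and many human promoters and enhancers start transcription in both directions, with unequal strength. A minimal promoter gives little RNA alone and responds to elements placed with it. APOBEC3F encodes a cytidine deaminase that restricts retroviruses, and the RefSeq annotation of GRCh38.p14 places the gene at chr22:39040864-39055972. The elements are known here by name only: a class prefix, a running number and the orientation, fwd or rev. The labels do not spell out the prefixes, so classes are called by their prefix. The 2703 elements made up 1508 loci (names without the orientation) in 29 classes, with 1325 fwd and 1378 rev elements.

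The DNA libraries held 3428376 and 3536642 reads and the RNA libraries 1679872 and 1802390. The median element had 908 and 946 DNA reads and 248 and 272 RNA reads. These are PCR reads without molecular identifiers, so they are not independent molecules and intervals from them cover counting error only. The activity of an element is given as the log2 ratio of RNA over DNA in each replicate, on the authors' scaled signals with the worth of 0.5 reads added to each value. Signals are reads multiplied by 1 factor per library, so a ratio of 0 marks a zero point set by the authors' scaling, not a measured inactive element. Errors are SDs over 2 replicates. The replicate ratios had a Pearson's r of 0.984 and a Spearman's rho of 0.967 across the 2703 elements, and the median SD of an element was 0.0911. The SD depended on depth: its median was 0.183 in the fifth of elements with the fewest DNA reads (41 to 694) and 0.0549 in the fifth with the most (4003 to 32781). The plot of replicate 2 against replicate 1 shows this spread by depth.

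**Figure D1:**
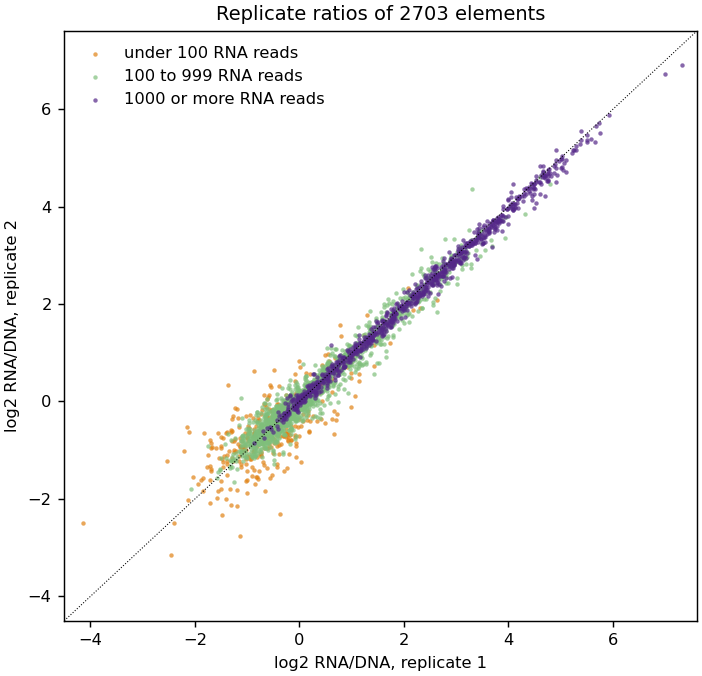
Log2 RNA/DNA of each element in replicate 2 (y axis) against replicate 1 (x axis), coloured by RNA reads over both libraries; the dotted line marks equal values. Elements with 1000 or more RNA reads lie close to the line, and the scatter is widest among those with under 100 reads.

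Most elements lay above or below the authors' zero point by more than the spread between libraries, and the distribution had a longer tail to high values. The median log2 ratio was 0.23, with quartiles of -0.37 and 1.70 and a range of -3.31 to 7.11. By limma's test with Benjamini-Hochberg adjustment over all elements, 1364 elements (50.5%) were higher in RNA than in DNA and 811 (30.0%) were lower at an adjusted p under 0.05, so that 80.5% were called in either direction. Of the elements called higher, 921 (34.1% of all) had a log2 ratio of at least 1, 291 of at least 3 and 22 of at least 5. Large falls were rare: 141 elements (5.22%) were called at -1 or below, and 4 at -2 or below. The zero point was also moved to the median of all elements in each replicate, by 0.25 in replicate 1 and 0.24 in replicate 2. Then 1213 were higher and 1150 lower, so the share of higher calls went from 62.7% to 51.3%. The elements called higher took 86.4% and 85.8% of the RNA reads of the 2 libraries against 51.1% of the DNA reads of each. The 100 elements with the most RNA reads gave 33.6% and 32.9% of all RNA reads.

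Among the 20 classes of at least 30 elements, KSSAT was the strongest, with a median log2 ratio of 3.31 over 121 elements. In it, 120 elements rose and 1, KSSAT0064.fwd with a single RNA read, fell, against 50.5% and 30.0% of all elements, and 74 of the 120 were at 3 or above. KSSAT0004.rev was its highest member. Its signals were 64.5 and 60.8 in DNA and 3946 and 3610 in RNA, a log2 ratio of 5.91 ± 0.03 (SD, n = 2). The RNA libraries lay far above both DNA libraries. KSSAT0142.rev was the lowest KSSAT element called with at least 10 RNA reads, at 0.26 ± 0.07 (SD, n = 2), and it was no longer called with the zero point at the median of all elements, without DNA replicate 1 or without DNA replicate 2 (limma, adjusted p = 0.831, 0.128 and 0.111).

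KSUAT followed among the K classes, with a median of 2.68 over 116 elements, 102 of them called higher and 6 lower. KSUAT0058.fwd led it with DNA signals of 263 and 255 and RNA signals of 10236 and 9177, a log2 ratio of 5.23 ± 0.08 (SD, n = 2). At the other end, KSUAT0153.rev fell to -0.83 ± 0.07 (SD, n = 2). Classes whose names share the KS start but end otherwise were weaker. KSUUT had a median of 0.33 over 127 elements, with 72 called higher, 56.7% against 50.5% of all elements, and 14 lower. KSSUT had one of 1.32 over 11 elements, with 10 called higher and 0 lower. KSUUT nevertheless held KSUUT0008.rev at 4.35 ± 0.10 (SD, n = 2), from DNA signals of 290.1 and 308 and RNA signals of 6215 and 5954.

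A second group of strong classes carried the prefixes TRE6_HRHP, TRE6_HPHP and TRE6_HRHR. Their medians were 2.76, 2.74 and 2.15, and 49 of 55, 42 of 45 and 43 of 49 elements rose while 0 fell in each. The leading members were TRE6_HPHP0054.fwd at 5.50 ± 0.23, TRE6_HRHP0040.fwd at 5.38 ± 0.02 and TRE6_HRHR0092.rev at 4.90 ± 0.21 (SD, n = 2 each). TRE6_HRHP0040.fwd was also one of the best measured, with 25026 RNA reads. In TRE6_HRHR the values spread most among these classes, with quartiles of 0.77 and 3.77. The TRE6 classes whose code ends in S were lower: 1.20 for TRE6_060S (73 of 102 called higher, 18 lower), 0.76 for TRE6_200S (14 of 21 higher, 4 lower) and 0.31 for TRE6_020S (63 of 115 higher, 29 lower). The 54.8% called higher in TRE6_020S were near the share of all elements, 50.5%.

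The large TRE5GC and KUU classes stood between these and the low classes. TRE5GCLR, TRE5GCCC and TRE5GCNC had medians of 0.64, 0.62 and 0.33, and 141 of 217, 147 of 236 and 141 of 259 of their elements were called higher and 31, 43 and 63 lower. The TRE5GCNC share, 54.4%, was near the 50.5% of all elements. All the same, the single highest element of the read-out came from TRE5GCLR. TRE5GCLR0189.rev had DNA signals of 13.5 and 17.3 and RNA signals of 2167 and 2091, a log2 ratio of 7.11 ± 0.28 (SD, n = 2), 139-fold. Its 180 DNA reads put it among the least covered elements, while its RNA rested on 4423 reads. TRE6_060S0005.rev was next at 6.86 ± 0.20 (SD, n = 2), from 244 DNA and 5051 RNA reads. Both lay apart from the rest, the third element being KSSAT0004.rev at 5.91. In the KUU classes, KUUAE had a median of 0.79 (122 of 162 called higher, 17 lower), KUUUT 0.56 (99 of 145 higher, 17 lower) and KUUAT 0.09 (66 of 147 higher, 39 lower). The KUUAT shares, 44.9% higher and 26.5% lower, were near the 50.5% and 30.0% of all elements. KUUUT0020.rev reached 4.46 ± 0.02, KUUAE0037.rev 4.19 ± 0.12 and KUUAT0043.rev 3.70 ± 0.13 (SD, n = 2 each).

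**Figure D2:**
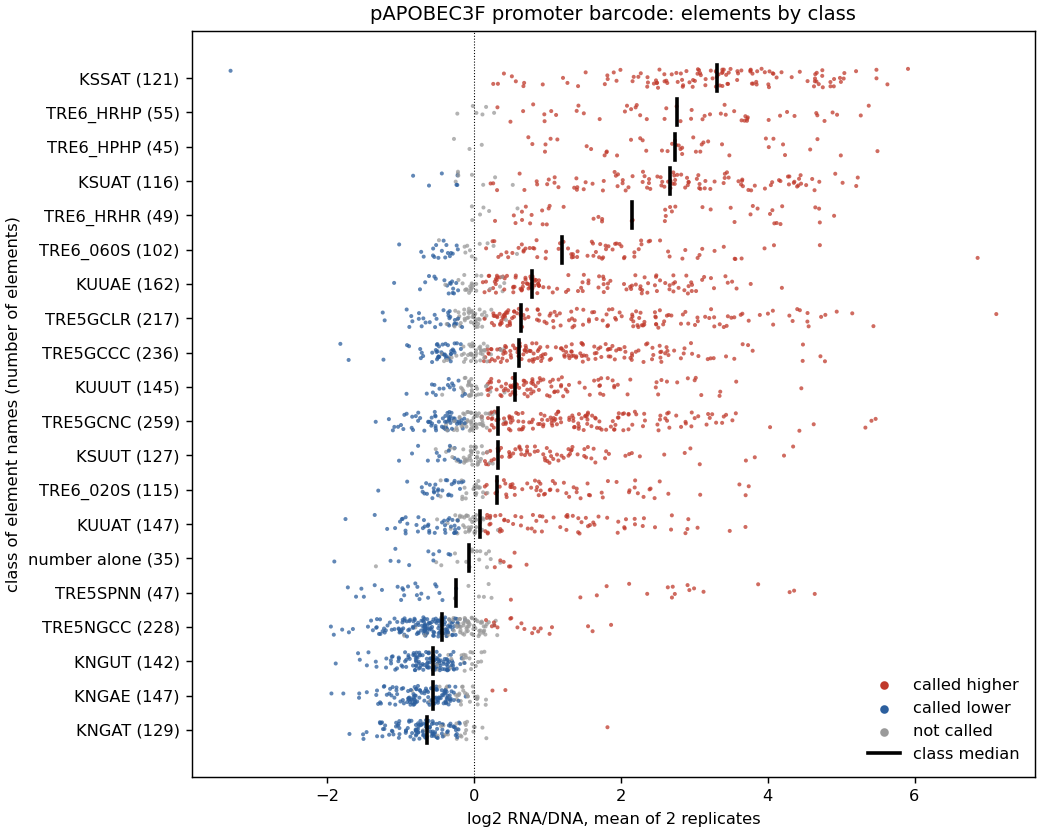
Log2 RNA/DNA (x axis, mean of 2 replicates) of every element of the 20 classes with at least 30 elements (y axis, ordered by median), with red for called higher, blue for called lower, grey for not called and a black bar at the class median. KSSAT lies almost wholly to the right of 0 with a median of 3.31, the KNG classes lie to the left with medians of -0.64 to -0.55, and TRE5SPNN has members in separate high and low ranges.

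Among the same 20 classes, the lowest medians were those of KNGAT, KNGAE, KNGUT and TRE5NGCC. The 3 KNG classes had medians of -0.64, -0.55 and -0.55, and 105 of 129, 114 of 147 and 116 of 142 elements fell, while 1, 2 and 0 rose. Over all elements, 30.0% were called lower and 50.5% higher. KNGAE0043.rev showed the lowest KNG value among elements with at least 10 RNA reads, with DNA signals of 212 and 222 and RNA signals of 49.5 and 63.3, a log2 ratio of -1.94 ± 0.20 (SD, n = 2). KNGUT0087.fwd was at -1.88 with an SD of 0.92, on 19 RNA reads. The KNGUT element nearest to 0 among those called, KNGUT0115.rev, was at -0.13 ± 0.01 (SD, n = 2) and turned to 0.010 with the zero point at the elements named by a number alone. Its call was also lost with a replicate block, with no trend, with 5 reads added and without DNA replicate 1 or 2 (limma, adjusted p = 0.0788, 0.0895, 0.0606, 0.332 and 0.248). A single KNG element stood out upwards: KNGAT0105.fwd, with DNA signals of 81.7 and 90.05 and RNA signals of 316 and 289, had a log2 ratio of 1.82 ± 0.19 (SD, n = 2). TRE5NGCC had a median of -0.44, with 136 of 228 elements called lower and 19 higher, and TRE5NGCC0092.fwd reached 1.87 ± 0.21 (SD, n = 2). The 35 elements named by a number alone had a median of -0.06, with 7 called higher and 11 lower, and ran from -1.90 (54773.rev) to 0.72 (56507.fwd). Their 31.4% called lower were near the 30.0% of all elements, and their 20% called higher were below the 50.5%. Where the zero point was moved to these elements, each replicate was shifted by its own median of them. These medians were -0.18 in replicate 1 and -0.09 in replicate 2.

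The lowest values rested on few RNA reads. Among called elements with at least 10 RNA reads, TRE5SPNL0017.fwd was lowest at -2.45 ± 0.06 (SD, n = 2), with 16 RNA reads against 521 DNA reads, and TRE5SPNR0005.rev followed at -2.08 ± 0.07 (SD, n = 2), with 14 against 352. TRE5SPON0032.rev was better covered, with 81 RNA and 1649 DNA reads, at -1.85 ± 0.01 (SD, n = 2). The lowest value of all, -3.31 ± 1.17 (SD, n = 2) for KSSAT0064.fwd, came from 1 RNA read and 96 DNA reads. Without added reads its log2 ratio was -4.09, and the exact 95% interval of that ratio ran from -9.41 to -1.58. It was not called without DNA replicate 1 or DNA replicate 2 (limma, adjusted p = 0.0766 and 0.0618). The rev element of the same locus, KSSAT0064.rev, was at 2.36 on 2411 RNA reads.

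The names RSV.fwd and RSV.rev mark the only elements without a number. RSV.fwd had DNA signals of 121 and 131 and RNA signals of 6230 and 6588, a log2 ratio of 5.67 ± 0.03 (SD, n = 2), the fifth highest locus. RSV.rev had DNA signals of 332 and 337 and RNA signals of 2262 and 2073, at 2.69 ± 0.10 (SD, n = 2). The fwd element was thus 2.97 ± 0.08 (SD, n = 2) higher on the log2 scale, and the difference passed the test described next (limma, adjusted p = 0.000212).

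Whether an element is equally active in both orientations was asked for the 1195 loci that had both, by testing the difference of fwd and rev within each library between RNA and DNA, in which the zero point cancels. The 2 orientations went together: Pearson's r of their ratios was 0.856 across loci, and the median absolute difference was 0.41. By limma with Benjamini-Hochberg adjustment over the 1195 loci, fwd was higher at 393 (32.9%) and rev at 254 (21.3%), together 54.1%. This count depended strongly on single libraries: it was 647 with all libraries, 187 without DNA replicate 1, 185 without DNA replicate 2, 844 without RNA replicate 1 and 846 without RNA replicate 2. Each of those fits takes its spread from the 2 libraries of the other molecule alone. Differences of at least 1 were steadier, with 165 loci called (13.8%), 98 with fwd higher and 67 with rev higher, and 143 to 194 with a library left out. At 530 loci both orientations were called higher in RNA and at 241 both lower. At 49 loci they were called in opposite directions, and all 49 were also called for orientation, 40 with fwd higher and 9 with rev higher.

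By class, the counts are read against 32.9% of all loci higher in fwd, 21.3% higher in rev and 54.1% called. In KSSAT, 43 of 56 pairs were called, 15 with fwd and 28 with rev higher, and in KSUAT 41 of 53, 20 with fwd and 21 with rev higher. TRE6_HRHP had 16 of 19 pairs called, 5 with fwd and 11 with rev higher. In TRE5GCNC 48 pairs were higher in fwd and 14 in rev of 120, a called share of 51.7%, near that of all loci. In KNGAE 21 pairs were higher in fwd and 6 in rev of 68. Fwd was the more frequent direction in both, as it was over all loci. KNGAT had the lowest share of calls among these, with 18 of 57 pairs. These are counts only, and no class was tested against another.

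In TRE5SPNN, most of the loci measured in both orientations were active in a single one. The class had 18 of 47 elements called higher (38.3%, against 50.5% of all elements) and 23 lower (48.9%, against 30.0%). Its quartiles were -0.85 and 2.50, so its median of -0.24 describes few of its members. Of its 13 pairs, 10 were called and all 10 differed by at least 1, and 7 were called in opposite directions, of 49 such loci in all. TRE5SPNN0054 had fwd signals of 18.0 and 18.3 in DNA and 5.06 and 10.1 in RNA, a log2 ratio of -1.25 ± 0.64 (SD, n = 2). Its rev element had 23.8 and 22.5 in DNA and 588 and 570 in RNA, a log2 ratio of 4.64 ± 0.02 (SD, n = 2). The orientations thus lay on opposite sides of 0 and the fwd minus rev difference was -5.89 on the log2 scale (limma, adjusted p = 0.000595). In the other sense, TRE5SPNN0034 was at 2.93 ± 0.06 in fwd and -0.90 ± 0.13 in rev, and TRE5SPNN0025 at 2.71 ± 0.04 and -0.62 ± 0.14 (SD, n = 2 each). TRE5SPNN0053 was an exception, being strong in both orientations at 3.13 ± 0.11 in fwd and 4.36 ± 0.06 in rev (SD, n = 2 each).

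The largest orientation difference of the read-out was at TRE5SPNR0019. Its fwd element had signals of 28.3 and 25.9 in DNA and 17.2 and 10.1 in RNA, a log2 ratio of -0.99 ± 0.44 on 28 RNA reads, and its rev element had 69.4 and 67.4 in DNA and 3705 and 3532 in RNA, 5.72 ± 0.02 on 7514 RNA reads (SD, n = 2 each). The fwd minus rev difference was -6.71 on the log2 scale, 105-fold in favour of rev (limma, adjusted p = 0.000434). Outside the TRE5SP names, TRE6_HRHR0066 was at 4.06 ± 0.10 in fwd and -0.02 ± 0.17 in rev, and TRE6_HRHR0016 at 3.86 ± 0.10 and 0.66 ± 0.14 (SD, n = 2 each). The latter's rev value rested on 36 RNA reads. These and the other named loci stayed called under each alternative run in which they were measured.

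**Figure D3:**
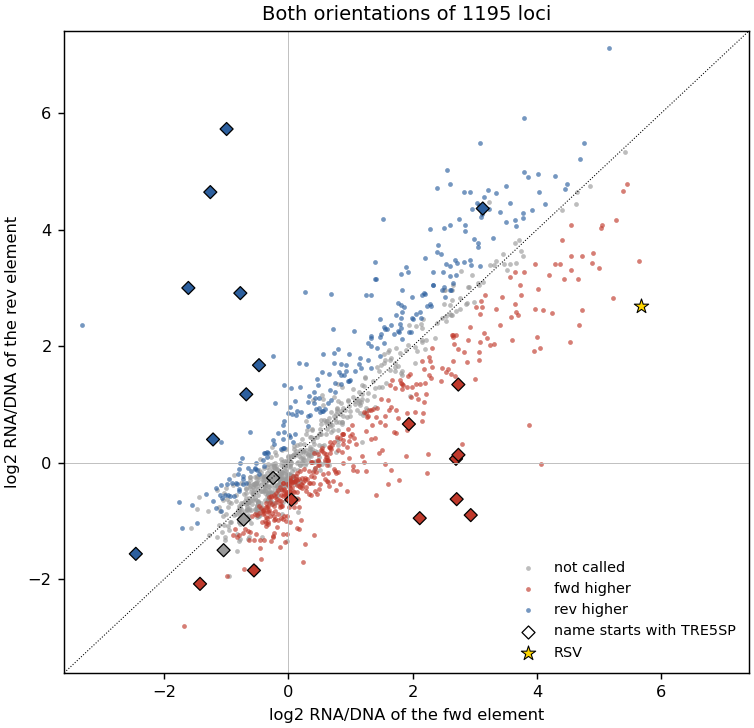
Log2 RNA/DNA of the rev element (y axis) against the fwd element (x axis) of the 1195 loci, with red for fwd higher, blue for rev higher, grey for not called, diamonds for names that start with TRE5SP and a star for RSV; the dotted line marks equal activity. Most loci follow the line, and 16 of the 22 TRE5SP loci differ by at least 1 between orientations, with TRE5SPNR0019 at the upper left (-0.99, 5.72), while 6 differ by less.

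How much barcode RNA there was per DNA read could be set beside pMYC and pGAPDH in the same libraries, over 2253 elements found with all 3 minimal promoters, without the authors' separate scaling of each table. These are read ratios of single libraries and were not tested. With pAPOBEC3F the median element gave 0.197 and 0.213 RNA reads per DNA read in replicates 1 and 2, with pMYC 0.301 and 0.339, and with pGAPDH 1.48 and 1.64. The medians under pGAPDH were thus 7.54 and 7.70 times those under pAPOBEC3F. At the 95th percentile the order was no longer the same: 2.25 and 2.33 with pAPOBEC3F, 2.03 and 2.21 with pMYC and 3.21 and 3.46 with pGAPDH. The authors' zero point corresponded to 0.172 and 0.185 RNA reads per DNA read with pAPOBEC3F and to 1.53 and 1.69 with pGAPDH. A log2 ratio of 0 therefore stands for different amounts of RNA in the 2 tables.

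The gap between minimal promoters was smaller among strong elements. Elements were placed by their pAPOBEC3F ratio in replicate 1 and read ratios were taken from replicate 2, which removes noise shared within a replicate but not the choice on pAPOBEC3F activity itself. Among 421 elements below -0.5, the median was 0.112 RNA reads per DNA read with pAPOBEC3F and 1.19 with pGAPDH, a median ratio within elements of 10.6. Among 292 elements from 1 to 2 the medians were 0.486 and 1.78, a ratio of 3.58. Among the 86 elements at 4 or above they were 4.10 and 4.84, a ratio of 1.13. Against pMYC the median ratio went from 1.69 in the lowest of these groups to 0.911 in the highest. TRE5GCLR0189.rev gave 27.5 and 22.4 RNA reads per DNA read with pAPOBEC3F, 43.1 and 39.7 with pMYC and 33.8 and 38.3 with pGAPDH. KSSAT0004.rev gave 10.5 and 11.0 with pAPOBEC3F, 10.4 and 11.6 with pMYC and 8.82 and 10.4 with pGAPDH. Placed by their pMYC ratio in replicate 1 instead, the lowest 20% of elements had a median pGAPDH to pAPOBEC3F ratio of 9.72 and the highest 5% one of 1.18. Placed by their pGAPDH ratio, which tilts the choice the other way, the 4 groups up to the 80th percentile had ratios of 7.16 to 8.74 without a steady fall, those from the 80th to the 95th percentile 2.58 and the highest 5% 1.26. The smaller gap at the top was thus present under all 3 placements, and the gradual fall below it was not. The groups and the replicate used for them were chosen after the values were seen.

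**Figure D4:**
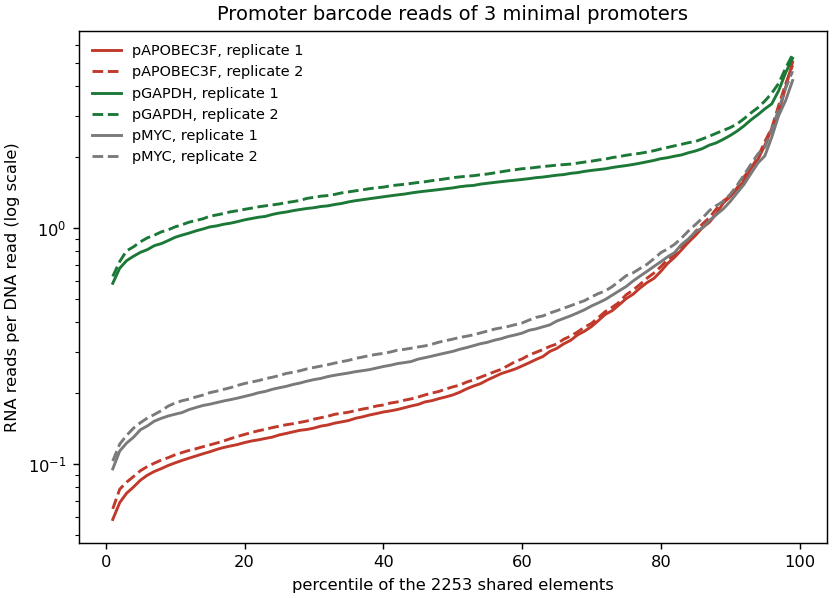
RNA reads per DNA read of the paBC (y axis, log scale) at each percentile of the 2253 shared elements (x axis, percentiles 1 to 99), for pAPOBEC3F, pMYC and pGAPDH in replicate 1 (solid) and replicate 2 (dashed). The pAPOBEC3F curve lies lowest at the median, 0.197 and 0.213 reads. At the 99th percentile it lies above pMYC, at 5.07 and 4.91 against 4.23 and 4.64 in replicates 1 and 2. It is still below pGAPDH there, at 5.26 and 5.46.

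On the authors' scaled ratios, the pAPOBEC3F promoter read-out spread more widely than the read-outs it was set beside. Over 2291 elements shared with pMYC the interquartile range was 1.90 here and 1.42 there, over 2609 shared with pGAPDH 2.00 and 0.694, and over 2699 shared with the enhancer barcode of pAPOBEC3F 2.07 and 0.732. Pearson's r across elements was 0.962, 0.779 and 0.764, as a description, since the promoter tables share libraries and the points share elements. The enhancer barcode had only a median of 49 and 53 RNA reads per element. There TRE5SPNR0019.rev, at 5.72 here, was at -0.61 ± 0.70 on 21 RNA reads, and KSSAT0004.rev, at 5.91 here, was at 4.25 ± 0.14 on 751 RNA reads (SD, n = 2 each). RSV.fwd was at 3.17 ± 0.04 there (SD, n = 2).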

How the data were processed

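Barcode libraries of K-562 cells were compared, 2 RNA against 2 DNA, for the paBC of pAPOBEC3F. The submitters' processing notes list limma, edgeR and fastp as the authors' tools and hg38 as build; the barcode matching and the scaling are not given in the sources used here. The deposited table holds signal values per element and library, and 100% of them were whole multiples of 1 step per column (tolerance 0.02), which was taken as 1 read. Its log2 fold changes, scores (t and log odds) and p-values were deposited as limma output, per the file headers, and served only as an alternative; the scores were not used. The authors' deposited table tested 2699 elements, with 1369 higher and 825 lower, of which 1358 and 796 were also called here.

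Log2 of the signal plus the worth of 0.5 reads was fitted with lmFit and eBayes with a mean trend (limma 3.58.1, R 4.3.3; tables in Python 3.11.15, pandas 2.3.3), RNA against DNA, with Benjamini-Hochberg adjustment over 2703 elements and calls at an adjusted p under 0.05. The fwd minus rev difference within each library was fitted alike over 1195 loci. Classes are described by counts and medians without a test. Named are the 10 called elements at the top and the 10 at the bottom, each from another locus, the lowest with at least 10 RNA reads; the highest and lowest called of each class of at least 30; RSV; the 10 loci with the largest orientation difference; and the 5 called elements with the largest rank change either way against each other table. KSSAT0064.rev and TRE5SPNN0053 were named after their values were seen. The members, classes and rules were chosen with earlier results of these data known. Alternatives were other reads added, no trend, a replicate block, other zero points, stricter thresholds, filters on DNA reads and 1 library left out. Each other zero point was set separately in each replicate, by the median of that replicate's ratios.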

Additional observations from a re-analysis of the deposited data

Results flagged for a closer look

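Some called elements had ratios of opposite sign, in both replicates, with pAPOBEC3F and with another minimal promoter in the same libraries. The differences were not tested, each table has its own zero point, and the elements were picked for their rank change, so the values are a description.

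Against pMYC, KNGAT0105.fwd was at 1.82 with pAPOBEC3F and -0.84 with pMYC. TRE6_HPHP0055.rev was at 1.14 and -0.72, TRE6_020S0056.fwd at 0.53 and -0.69, and TRE6_060S0012.fwd at 0.33 and -0.58. In the other direction, KSSAT0064.fwd was at -3.31 with pAPOBEC3F, on 1 RNA read, and at 2.79 with pMYC, on 2160. TRE5SPNN0001.fwd was at -0.99 and 0.70, on 138 and 1909 RNA reads, and KNGUT0084.fwd at -0.63 and 0.50.

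Against pGAPDH, both orientations of TRE5GCNC0053 had ratios of opposite sign: rev was at 1.97 with pAPOBEC3F and -1.01 with pGAPDH, and fwd at 1.74 and -0.92. The signs are relative to a different zero point for each minimal promoter. In reads, rev had 3041 RNA and 4355 DNA reads with pAPOBEC3F, and 2035 and 2538 with pGAPDH. For fwd these were 1653 and 2783, and 1704 and 1992. TRE5GCNC0081.rev was at 2.96 and -0.59, TRE6_HPHP0013.fwd at 1.78 and -0.92, and KNGAT0105.fwd at 1.82 and -0.85. Lower with pAPOBEC3F and higher with pGAPDH were KSSAT0064.fwd at -3.31 and 0.97, KNGUT0084.fwd at -0.63 and 0.50, KUUAT0119.rev at -0.39 and 0.31, KNGAT0080.rev at -0.43 and 0.25, and KNGAT0025.rev at -0.56 and 0.17. KNGAT0105.fwd and KNGUT0084.fwd thus differed in sign from both other minimal promoters, as did KSSAT0064.fwd. With the zero point at the median of all elements, TRE6_060S0012.fwd (0.09) and TRE6_020S0056.fwd (0.28) lost their pAPOBEC3F calls (limma, adjusted p = 0.261 and 0.0847). With it at the elements named by a number alone, KUUAT0119.rev (-0.25) and KNGAT0080.rev (-0.29) lost theirs (limma, adjusted p = 0.144 and 0.162). These 2 calls were also lost with no trend (limma, adjusted p = 0.0525 and 0.112). KNGAT0080.rev had unequal replicate ratios, -0.09 and -0.77, and was at -0.15 without RNA replicate 2. Its call was also lost with 5 reads added (limma, adjusted p = 0.055). With 1 of the DNA libraries left out, the pAPOBEC3F calls of KSSAT0064.fwd, TRE6_020S0056.fwd, KUUAT0119.rev, KNGAT0080.rev and KNGAT0025.rev were lost.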

How the results depend on the processing

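The counts of elements called higher and lower moved by less than 1.5 times with other reads added, no trend or a replicate block. The same held for both other zero points, the filters on DNA reads, an adjusted p under 0.01 and 1 library left out. With the zero point at the median of all elements, 1213 were higher and 1150 lower. With an absolute log2 difference of at least 1, 141 elements were lower. The orientation counts moved more. Called loci were 364 at an adjusted p under 0.01 (215 with fwd higher, 149 with rev higher) and 165 at an absolute difference of at least 1 (98 and 67). With 1 library left out they ran from 185 to 846, with fwd higher at 110 to 535 and rev higher at 73 to 343. With the zero point at the 35 elements named by a number alone, 1454 elements were higher and 614 lower, and KNGUT0115.rev turned from -0.13 to 0.010. Of the 75 named elements, 13 were no longer called without DNA replicate 1 and 13 without DNA replicate 2. Technical replicates were divided between RNA and DNA, but the labels do not state that equal numbers mark the same cells, and the deviations of same-numbered libraries correlated at 0.019 across elements, over 2 pairs. With a replicate block 1363 elements were higher and 823 lower, and 578 loci were called; of the 75 named elements only KNGUT0115.rev lost its call. The filter at 20 DNA reads per library removed no element. One at 200, added after the data were seen, left 2434 elements, with 1224 higher and 764 lower. The planned count-model alternatives were not run, since the deposited values are scaled. Depth limits the low end most: 5 elements had under 10 RNA reads over both libraries.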
